A study of Mus musculus with 9 samples.

Results

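Fgf5, Pou3f1, Otx2, Sox3, Zic5, Zic2, Grhl2, and Lef1 are genes that mark formative and primed pluripotency. These 8 genes were taken by symbol from the 25239 gene symbols counted in each library, and all 8 passed the filter on low counts that left 14125 tested genes. RNA-seq libraries came from mouse E14 embryonic stem cells (ESCs; strain labelled 12910la) of 3 genotypes, with 3 libraries per genotype and 9 in all. The controls were labelled Rbbp4+/+. The Rbbp4Ins/Ins line (Ins/Ins) carried a small in-frame insertion on both alleles of Rbbp4, a gene for a histone-binding subunit of Polycomb repressive complex 2 and of histone deacetylase complexes. The Rbbp4Ins/Del line (Ins/Del) carried that insertion on one allele and an in-frame deletion on the other. Each mutant line was a single clone obtained with CRISPR-Cas9, and all lines grew in medium with fetal bovine serum and leukemia inhibitory factor. The paper used E14 ESCs as the control and describes transfection, puromycin selection, and growth as colonies for the edited cells. With a single clone per mutant genotype, an effect of the mutation cannot be told apart from a difference between clones or an effect of these steps. Nothing in the labels says that the 3 libraries of a line were separate cultures, so p-values measure the spread between these libraries, which may be technical.

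Naive ESCs resemble the epiblast before implantation. On their way to lineage commitment they pass through a formative state, in which naive genes are shut down and transcription factors such as OTX2 and POU3F1 are induced, and they then reach a primed state like that of the epiblast after implantation. Cultures in serum are known to be mixed, with cells nearer to the naive state beside cells that express genes of the later states. In bulk libraries, fewer cells of a state and less RNA per cell cannot be told apart.

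Library totals ranged from 15838064 to 21366868 reads counted in genes. Control replicate 2 differed more from control replicates 1 and 3 (chi-square per gene 4.828 and 4.047) than these did from each other (2.696). Pairs of libraries within a mutant line had values from 1.895 to 2.658. Rbbp4 (chr4:129307100-129335370, minus strand, mm10) had a normalized count of 10005 ± 99.1 (SD, n = 3) in control, 5604 ± 153 in Ins/Ins, and 10359 ± 238 in Ins/Del ESCs. By edgeR's quasi-likelihood test, Rbbp4 was lower in Ins/Ins (log2 fold change -0.84, adjusted p = 1.8e-25) and did not pass in Ins/Del (0.05, adjusted p = 0.107). It was higher in Ins/Del than in Ins/Ins (0.89, adjusted p = 4.1e-24, same edgeR test). The part of this difference in other differences between the mutants was not tested. A small in-frame change need not alter the read count, so these values do not check the genotype. The general pluripotency genes Pou5f1 and Sox2 had mean normalized counts between 11399 and 18059 in all 3 lines. A normalized count is the read count scaled to the mean effective library size.

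The windows around annotated start sites are shown for members with contrasting responses: Fgf5 with the largest decrease, Otx2 with the largest difference between the mutants that passed the test, and Zic5 with a small decrease. RefSeq windows of 300 bases on GRCm38.p6, from 250 before to 50 after a start, were found for Fgf5, Otx2, Zic5, and Lef1. Pou3f1, Zic2, Sox3, and Grhl2 had none. Capitals mark letters that match a searched motif, TATAAA in Fgf5 and GGATTA, a site for OTX homeodomain proteins, in Otx2. The Fgf5 window is chr5:98253934-98254233 on the plus strand, the Otx2 window shown is chr14:48665060-48665359 on the minus strand, and the Zic5 window is chr14:122465609-122465908 on the minus strand. Otx2 had 4 windows, and the one shown is the only one with a GGATTA match. It lies within the gene, away from the gene start at chr14:48673819 that is used for distances below.
Fgf5: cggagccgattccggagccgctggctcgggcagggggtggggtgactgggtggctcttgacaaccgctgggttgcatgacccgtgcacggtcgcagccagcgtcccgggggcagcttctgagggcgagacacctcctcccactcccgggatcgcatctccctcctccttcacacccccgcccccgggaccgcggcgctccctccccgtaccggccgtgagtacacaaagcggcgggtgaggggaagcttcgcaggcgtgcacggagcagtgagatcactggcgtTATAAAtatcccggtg
Otx2: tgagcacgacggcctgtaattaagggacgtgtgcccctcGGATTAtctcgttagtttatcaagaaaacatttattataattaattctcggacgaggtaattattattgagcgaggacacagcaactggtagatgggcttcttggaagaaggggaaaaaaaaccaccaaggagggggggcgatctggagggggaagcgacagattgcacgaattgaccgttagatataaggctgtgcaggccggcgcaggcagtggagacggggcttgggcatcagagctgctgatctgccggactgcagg
Zic5: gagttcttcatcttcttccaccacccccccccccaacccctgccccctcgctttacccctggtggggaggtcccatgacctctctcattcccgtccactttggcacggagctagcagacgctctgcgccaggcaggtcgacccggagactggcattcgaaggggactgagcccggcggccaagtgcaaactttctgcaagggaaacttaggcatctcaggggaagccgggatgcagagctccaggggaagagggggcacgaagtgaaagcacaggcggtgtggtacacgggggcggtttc
The 7 motifs GGATTA (OTX), ATCAAAG (TCF/LEF), CATTGT (SOX), ATGCAAAT (POU octamer), AACNNGTT (Grainyhead), CCAAT, and TATAAA were searched on both strands. Of 32851 RefSeq windows, 7.06% held GGATTA, 3.73% ATCAAAG, 12.6% CATTGT, 1.74% ATGCAAAT, 4.20% AACNNGTT, 37.4% CCAAT, and 13.6% TATAAA. These shares are per window and not per gene, and a gene can have several windows. In Fgf5 the TATAAA match began at base 35 after the start, and in Otx2 the GGATTA match lay 211 bases before it. None of the motifs was in the Zic5 window. Of the other Otx2 windows, one held CCAAT 70 bases and one TATAAA 192 bases before the start, and the remaining one held none of the motifs. Of the Lef1 windows, one held CATTGT 132 bases and TATAAA 231 bases before the start. The GC content was 68.3% in Fgf5, 51.0% in this Otx2 window, and 62.7% in Zic5, against a median of 52.7% over all windows. The ratio of observed to expected CpG was 0.828, 0.891, and 0.510, and its median over all windows was 0.384. These matches are descriptions of the letters and not evidence of binding.

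To find which of the markers differed between the mutants and the controls, all tested genes were fitted together with edgeR's quasi-likelihood test, and a gene was called at a Benjamini-Hochberg adjusted p of at most 0.01. Fgf5, Pou3f1, Otx2, and Sox3 fell by more than 2-fold in both mutant lines, Zic5 and Grhl2 fell by less than 2-fold in both, Zic2 passed in neither, and Lef1 rose in Ins/Del only. In Ins/Ins ESCs, 6 of the 8 genes were lower and 0 were higher, and 2 did not pass. Of all tested genes in that comparison, 58.4% were called, 29.4% lower and 29% higher. In Ins/Del ESCs, 6 were lower, 1 was higher, and 1 did not pass, where 62.5% of all tested genes were called, 31.9% lower and 30.6% higher. The 4 genes that fell more than 2-fold compare with 8.96% of tested genes that fell as far in Ins/Ins and 10.2% in Ins/Del, and 8.45% of tested genes rose as far in Ins/Del, where none of the 8 did. The libraries of 6 of the 8 genes lay wholly below the controls in each mutant, as did those of 34.2% of tested genes in Ins/Ins and 36.9% in Ins/Del, and 1 lay wholly above in Ins/Del, as did 35.9% of tested genes. The median log2 fold change of the 8 genes was -1.05 in Ins/Ins and -1.06 in Ins/Del, and over all tested genes it was 0.00 and -0.01. Both comparisons use the same 3 control libraries, so they are not independent.

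Fgf5, a secreted fibroblast growth factor and a classical marker of the epiblast after implantation, lies at chr5:98254184-98277030 on the plus strand and has 3 exon blocks. The control libraries had normalized counts of 214, 208, and 217. Ins/Ins libraries had 16.3, 15.8, and 14.8, and Ins/Del libraries had 6.13, 9.02, and 9.26. All mutant libraries lay far below all controls, and the libraries of the 2 mutants did not overlap either. The low values rest on 14 to 19 reads per library in Ins/Ins and 6 to 10 in Ins/Del. The log2 fold change was -3.75 ± 0.167 (SE) in Ins/Ins (adjusted p = 7.0e-22, edgeR's quasi-likelihood test), a 13.5-fold lower level. In Ins/Del it was -4.69 ± 0.191 (adjusted p = 3.5e-23, same edgeR test), a 25.8-fold lower level. Among all tested genes, 68 had a lower log2 fold change than Fgf5 in Ins/Ins and 32 in Ins/Del.

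Pou3f1, also called Oct6, encodes a POU-domain transcription factor of the epiblast and of neural and Schwann cell lineages. It is a gene of 1 exon at chr4:124656807-124660655, plus strand. Its normalized counts were 1676, 1557, and 1747 in control libraries. They were 181, 153, and 158 in Ins/Ins and 141, 105, and 146 in Ins/Del. Every control library had several times the count of any mutant library, and the Ins/Del libraries all lay below those of Ins/Ins. Pou3f1 fell to 9.88% of the control mean in Ins/Ins (log2 fold change -3.33 ± 0.073, adjusted p = 1.2e-31, edgeR) and to 7.86% in Ins/Del (-3.68 ± 0.077, adjusted p = 1.2e-32, edgeR). An antisense gene, Gm2164, overlaps 8.57% of its exonic length and was not in the count tables. Whether counting used the strand is not given in the sources used here.

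Otx2, a homeodomain factor that drives exit from the naive state and later forms the forebrain, lies at chr14:48657677-48673819 on the minus strand. Control libraries had normalized counts of 1341, 1303, and 1481. Ins/Ins libraries had 437, 425, and 423, and Ins/Del libraries had 299, 308, and 297. The 3 lines were fully separated, in the order control, Ins/Ins, and Ins/Del. Otx2 fell to 31.2% of the control mean in Ins/Ins (log2 fold change -1.68 ± 0.056, adjusted p = 8.1e-26, edgeR). In Ins/Del it fell to 21.9% (-2.19 ± 0.060, adjusted p = 8.1e-29, edgeR). Its antisense RNA Otx2os1 shares 3.65% of the exonic length and had at most 5 reads in any library.

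Sox3, an X-linked SoxB1 factor of pluripotent epiblast and neural progenitors, is a gene of 1 exon at chrX:60891366-60893430, minus strand. Its normalized counts were 206, 186, and 225 in control libraries. Ins/Ins libraries had 61.6, 50.8, and 48.6, and Ins/Del libraries had 79.7, 59.6, and 69.4. Both mutants lay below all controls, and they overlapped with each other. The level was 26.1% of control in Ins/Ins (log2 fold change -1.92 ± 0.135, adjusted p = 1.4e-15, edgeR) and 33.8% in Ins/Del (-1.57 ± 0.129, adjusted p = 1.1e-13, edgeR). Sox3 was thus the only one of the 4 strongly lowered genes with a higher mean in Ins/Del than in Ins/Ins, a difference that did not pass the test.

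**Figure D1:**
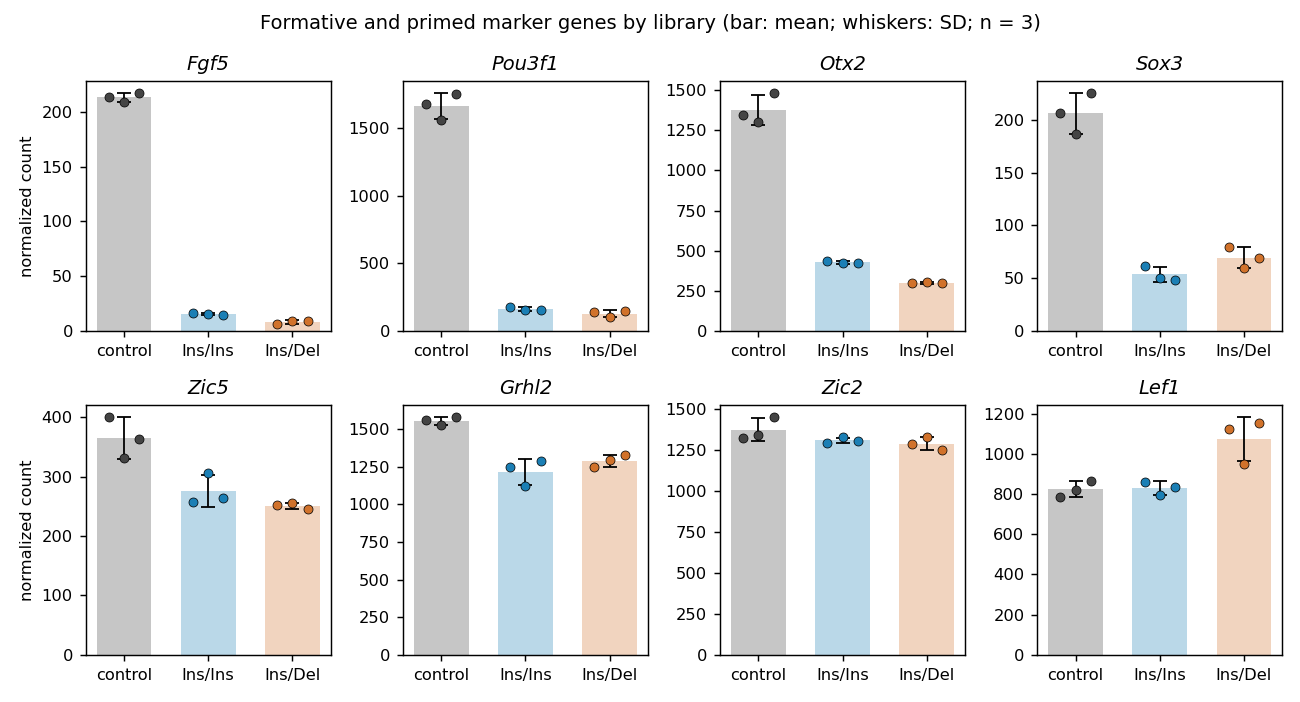
Normalized counts (vertical axes, each from 0) of the 8 marker genes in control, Ins/Ins, and Ins/Del ESCs, with 1 point per library, bars for means, and whiskers for SD (n = 3). Fgf5, Pou3f1, Otx2, and Sox3 fell in both mutants by more than 2-fold, Zic5 and Grhl2 fell by less, Zic2 stayed between 1248 and 1452 in all libraries, and Lef1 was higher only in Ins/Del.

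Zic2 and Zic5 encode zinc finger factors of the Zic family and are neighbours on chromosome 14, transcribed in opposite directions. Zic2 lies at chr14:122475435-122479852 on the plus strand and Zic5 at chr14:122456795-122465677 on the minus strand, with 9.758 kb between their starts. Zic5 passed the test in both mutants and Zic2 in neither, and the difference between the 2 genes was not tested. Zic5 had normalized counts of 401, 331, and 363 in control, 257, 306, and 264 in Ins/Ins, and 253, 255, and 245 in Ins/Del libraries. The highest mutant library lay below the lowest control, although the gap to Ins/Ins was small. Zic5 fell by 0.42 on the log2 scale in Ins/Ins (SE 0.083, adjusted p = 3.3e-05, edgeR) and by 0.54 in Ins/Del (SE 0.085, adjusted p = 4.7e-07, edgeR).

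For Zic2, control libraries had normalized counts of 1320.0, 1343, and 1452. Ins/Ins libraries had 1294, 1326, and 1303, and Ins/Del libraries had 1283, 1329.98, and 1248. The lines overlapped. The log2 fold change was -0.07 (95% interval -0.16 to 0.02, adjusted p = 0.174, edgeR) in Ins/Ins and -0.09 (-0.18 to 0.00, adjusted p = 0.0729, edgeR) in Ins/Del. These intervals leave room for a small decrease and do not show that the level was equal.

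Grhl2, a Grainyhead factor that opens and maintains epithelial enhancers as naive cells become primed, lies at chr15:37233036-37363569 on the plus strand. Its normalized counts were 1558, 1524, and 1579 in control libraries. They were 1245, 1119, and 1284 in Ins/Ins and 1247, 1295, and 1325 in Ins/Del. Controls lay above all mutant libraries. The level was 78.3% of control in Ins/Ins (log2 fold change -0.35 ± 0.045, adjusted p = 1.2e-08, edgeR) and 83.0% in Ins/Del (-0.27 ± 0.045, adjusted p = 1.6e-06, edgeR). The antisense gene Gm16136 shares 1.96% of the exonic length of Grhl2. It had means of 29.3, 16.1, and 9.50 normalized counts in control, Ins/Ins, and Ins/Del ESCs, on 8 to 20 reads per mutant library. Both genes were lower in each mutant. The lowest mean was in Ins/Ins for Grhl2 and in Ins/Del for Gm16136, and neither difference between the mutants passed the test.

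Lef1, a nuclear partner of beta-catenin in WNT signalling, lies at chr3:131110471-131224356 on the plus strand. Its control libraries had normalized counts of 785, 820.2, and 864. Ins/Ins libraries had 859, 793, and 837, and Ins/Del libraries had 1121, 948, and 1154. Ins/Ins overlapped with control, whereas all Ins/Del libraries were above both. The log2 fold change was 0.02 in Ins/Ins (95% interval -0.10 to 0.14, adjusted p = 0.808, edgeR) and 0.38 ± 0.058 in Ins/Del (adjusted p = 3.0e-07, edgeR), which is 130.6% of control. The antisense gene Gm43352, which was not in the count tables, overlaps 13.7% of the exonic length of Lef1.

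**Figure D2:**
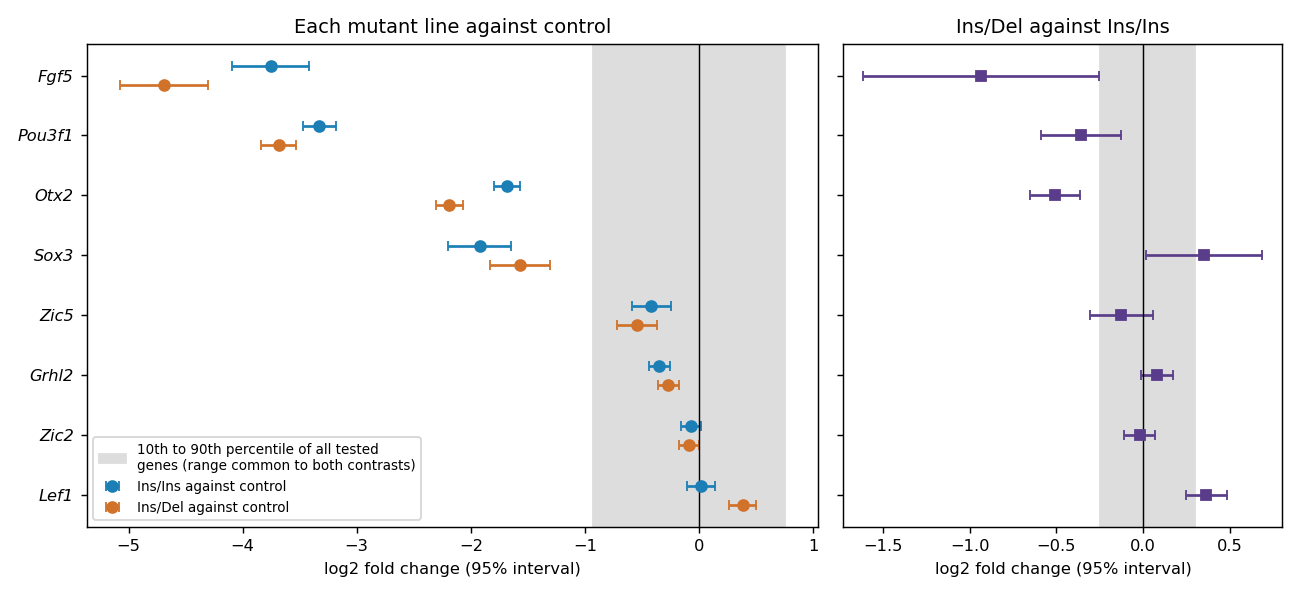
Log2 fold changes with 95% intervals (horizontal axes) of the 8 genes in each mutant against control (left) and in Ins/Del against Ins/Ins (right). Grey bands mark the 10th to 90th percentile of all tested genes, on the left only the range common to both mutants (-0.93 to 0.75). Fgf5, Pou3f1, Otx2, and Sox3 lie left of the grey band in both mutants, and Lef1 is the gene called higher in Ins/Del, at 0.38.

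Levels can be compared between genes only per length, so counts were also expressed as read counts divided by exonic length and effective library size (RPKM). In control ESCs, Zic2 was highest with 26.1 ± 1.34 RPKM (SD, n = 3), followed by Pou3f1 with 23.7 ± 1.37, Otx2 with 17.9 ± 1.22, and Grhl2 with 9.89 ± 0.175. Sox3 (5.47 ± 0.514 RPKM) and Lef1 (5.14 ± 0.247 RPKM) overlapped between libraries, and Fgf5 (4.67 ± 0.0899 RPKM) and Zic5 (4.09 ± 0.393 RPKM) came last. In Ins/Ins the order became Zic2, Grhl2, Otx2, Lef1, Zic5, Pou3f1, Sox3, and Fgf5, with no overlap between neighbours. Pou3f1 had dropped to 2.34 ± 0.215 RPKM, and Fgf5 was lowest at 0.342 ± 0.0163 RPKM. In Ins/Del, Lef1 at 6.70 ± 0.689 RPKM stood above Otx2 at 3.91 ± 0.0735 RPKM. Pou3f1 (1.86 ± 0.321 RPKM) and Sox3 (1.85 ± 0.268 RPKM) could not be separated there, and Fgf5 had 0.178 ± 0.0381 RPKM.

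Comparison of the mutant lines with each other asks whether the 2 allele combinations differ. Otx2 was lower and Lef1 was higher in Ins/Del than in Ins/Ins, and the other 6 genes did not pass. Of all tested genes, 4.64% were lower and 6.17% higher in this comparison. The Ins/Del libraries lay wholly below those of Ins/Ins for 4 of the 8 genes and wholly above for 1, as they did for 16.7% and 17.4% of tested genes. The difference in log2 level was -0.51 ± 0.071 for Otx2 (adjusted p = 9.9e-07, edgeR) and 0.36 ± 0.058 for Lef1 (adjusted p = 1.1e-05, edgeR). Fgf5 and Pou3f1 were lower in all Ins/Del libraries than in any Ins/Ins library, yet missed the limit. The difference was -0.93 for Fgf5 (95% interval -1.61 to -0.26, adjusted p = 0.0456, edgeR) and -0.36 for Pou3f1 (-0.59 to -0.13, adjusted p = 0.0221, edgeR). For Sox3 it was 0.35 (0.02 to 0.69, adjusted p = 0.141, edgeR). Differences were -0.13 (-0.31 to 0.05) for Zic5, 0.08 (-0.01 to 0.17) for Grhl2, and -0.02 (-0.11 to 0.07) for Zic2, with adjusted p of 0.357, 0.243, and 0.806 in edgeR's test.

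Otx2 lies in a stretch of chromosome 14 in which most genes were lower in the mutants. Of 6 other tested genes within 1 Mb of its start, 3 were lower and 0 higher in each mutant. Within 5 Mb, a window chosen after the values were seen, 42 of 52 tested genes (80.8%) were lower in Ins/Ins and 38 (73.1%) in Ins/Del, with medians of -0.87 in both. Over all tested genes, 29.4% were lower in Ins/Ins and 31.9% in Ins/Del. The log2 fold change of Otx2 minus this median was -0.81 in Ins/Ins and -1.32 in Ins/Del. Of the 52 genes, 5 were lower than Otx2 in Ins/Ins and 2 in Ins/Del. Between the mutants the neighbours had a median of -0.01, and 4 of them were higher and 0 lower in Ins/Del, while Otx2 itself was lower. The shares of all tested genes between the mutants were 6.17% higher and 4.64% lower. Copy number in this stretch was not measured here, and its part in the Otx2 result was not tested. Sall2, a zinc finger factor on the formative list described next, lies 3.65 Mb from Otx2 in the same stretch.

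**Figure D3:**
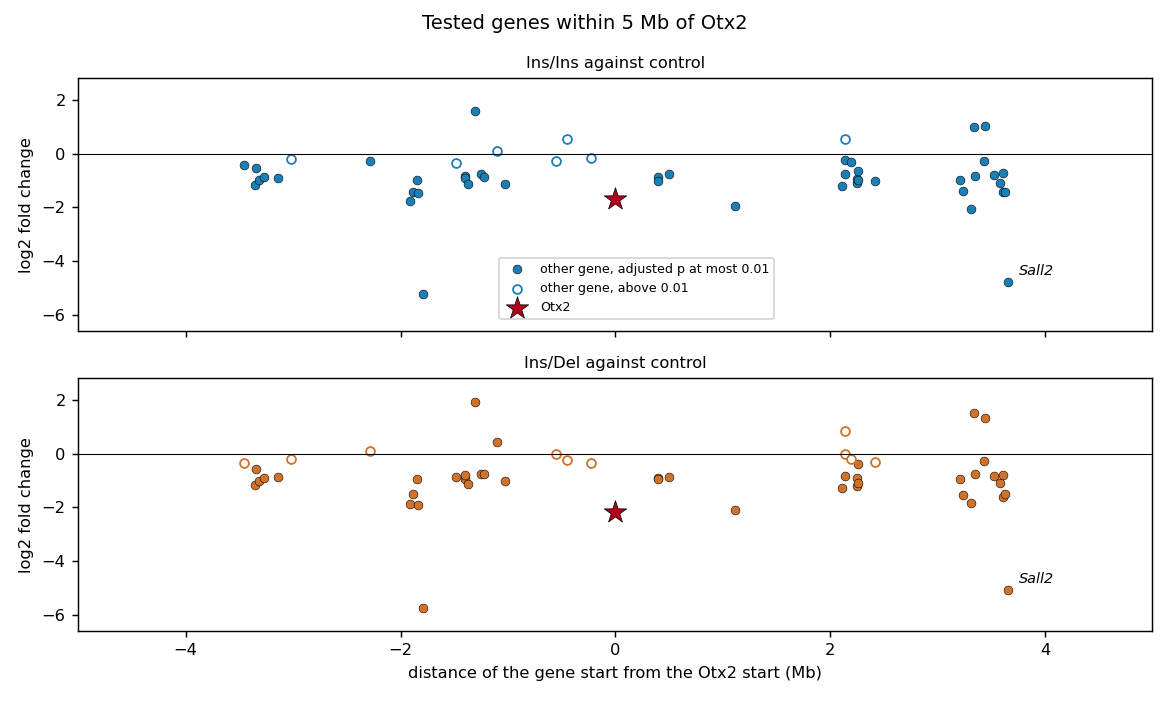
Log2 fold change against control (vertical axes) of 52 tested genes within 5 Mb of Otx2 by the distance of their start from that of Otx2 in Mb (horizontal axis), with Ins/Ins above and Ins/Del below. Most neighbours lie below 0 with a median of -0.87, and Otx2 (star, -1.68 and -2.19) lies below most of them.

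The surroundings of the other genes were more mixed. For comparison, 29.4% of all tested genes were lower and 29% higher in Ins/Ins, and 31.9% and 30.6% in Ins/Del. Of 4 tested genes within 1 Mb of Fgf5, 1 was lower in each mutant, the neighbour Antxr2, an anthrax toxin receptor, with means of 26.0, 4.50, and 1.07 normalized counts in control, Ins/Ins, and Ins/Del, and 1 was higher in Ins/Ins and 0 in Ins/Del. Around Pou3f1, 12 of 21 tested genes were higher and 4 lower in Ins/Ins, against 11 higher and 3 lower in Ins/Del. The nearest tested genes on either side of Pou3f1 were not among the higher ones. Rragc fell in both mutants (log2 fold change -0.52 and -0.53), and Utp11 fell in Ins/Ins (-0.18) and did not pass in Ins/Del (-0.10). Around Sox3, 1 of 4 was lower and 1 higher in Ins/Ins, and 0 were lower and 2 higher in Ins/Del. Near Grhl2, 4 of 9 were higher and 2 lower in Ins/Ins, against 4 higher and 3 lower in Ins/Del, with Zfp706 (log2 fold change 0.75 and 0.81) among the higher ones. Near Zic2, 3 of 11 genes were lower and as many higher in Ins/Ins, and in Ins/Del 4 were lower and 1 was higher. Pcca, the nearest gene on the far side of Zic2, fell by 0.56 and 0.86 on the log2 scale. Hadh, next to Lef1, rose in both mutants (log2 fold change 0.37 and 0.34).

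Paralogs of the 8 genes were examined to see whether whole families moved. Zic1 and Zic4 were under the count filter. Of the SoxB1 genes, Sox2 rose slightly in Ins/Ins (log2 fold change 0.12) and did not pass in Ins/Del, and Sox1 passed in neither (131 ± 6.84, 122 ± 6.19, and 158 ± 17.1 normalized counts). The Grainyhead genes Grhl1 (0.34 and 0.29), Grhl3 (0.59 and 0.54), and Tfcp2l1 (0.87 and 0.81), a naive factor, rose in both mutants while Grhl2 fell. Tfcp2 and Ubp1 of the same family did not pass. Among TCF/LEF factors, Tcf7 (-1.06 and -1.28) and Tcf7l2 (-0.43 and -0.57) fell in both mutants, and Tcf7l1, a repressor of naive genes, fell in Ins/Del (-0.31) but did not pass in Ins/Ins (-0.09). Lef1 was the only TCF/LEF gene called higher in Ins/Del. Pou3f4 also fell in both mutants, with means of 18.1, 1.14, and 3.55 normalized counts in control, Ins/Ins, and Ins/Del. The mutant values rest on few reads. Unlike Pou3f1, its mean was higher in Ins/Del than in Ins/Ins, a difference that did not pass the test. Pou3f2, Pou3f3, Otx1, and Crx were under the filter.

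The remaining genes of the formative state showed calls in both directions. Shares over all tested genes were 29.4% lower and 29% higher in Ins/Ins, and 31.9% and 30.6% in Ins/Del. Of 16 other formative genes, all tested, 9 were lower and 4 higher in Ins/Ins, and 10 were lower and 5 higher in Ins/Del, with medians of -0.37 and -0.51. Sall2 fell furthest, from 1012 ± 37.7 to 37.0 ± 9.57 in Ins/Ins and 29.3 ± 7.60 in Ins/Del. Lin28a, an RNA-binding protein that blocks let-7 maturation, fell from 13714 ± 229 to 5097 ± 145 and 4674 ± 135. The DNA methyltransferase gene Dnmt3a fell from 3208 ± 98.6 to 1024 ± 47.3 and 1291 ± 11.6. Against this, the ETS factor gene Etv4 rose from 517 ± 21.3 to 1211 ± 8.90 and 1704 ± 38.2.

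Of 16 genes of the later primed epiblast and gastrula, 12 passed the filter on low counts. Among these, 6 were lower and 3 higher in each mutant, with medians of -0.39 and -0.44. The corresponding shares of all tested genes were 29.4% lower and 29% higher in Ins/Ins, and 31.9% and 30.6% in Ins/Del. T (Brachyury), the mesoderm regulator, had means of 44.6, 2.34, and 0.301 normalized counts in control, Ins/Ins, and Ins/Del ESCs, and Sp5, a WNT target, had 68.6, 2.38, and 2.05. No mutant library had more than 3 reads of either gene, so no fold is given. Cdh2 (N-cadherin) fell from 301 ± 19.0 to 18.7 ± 1.2 and 18.5 ± 1.25. Fgf8 fell from 31.6 ± 9.62 to 5.96 ± 2.95 and 2.7 ± 1.46, values that rest on 3 to 7 reads per library in Ins/Ins and 1 to 4 in Ins/Del.

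The naive genes moved mainly the other way. Of 15, 12 were higher and 2 lower in Ins/Ins, against 11 higher and 2 lower in Ins/Del, with medians of 0.57 and 0.64. Among all tested genes, 29% were higher and 29.4% lower in Ins/Ins, and 30.6% and 31.9% in Ins/Del. Tbx3 rose from 739.9 ± 19.7 to 2787 ± 105 and 3205 ± 115. Tcl1, a coactivator of AKT, rose from 849.6 ± 48.3 to 2189 ± 20.9 and 1946 ± 74.9, and Zfp42 (Rex1) rose from 7602 ± 283 to 14229 ± 255 and 15812 ± 311. Gbx2 went with the markers instead and fell from 953 ± 62.2 to 292 ± 12.0 and 379 ± 32. Of the general pluripotency genes, Lin28a and Utf1 are also on the formative list and Tdgf1 is on the later primed list. Pou5f1 fell by 0.12 on the log2 scale in Ins/Ins and did not pass in Ins/Del (-0.03), and Sall4 (0.34 and 0.38) and Dppa2 (0.19 and 0.30) rose in both mutants. Dppa4 (-0.19 and -0.16), Utf1 (-0.48 and -0.72), and Lin28a (-1.43 and -1.55) fell in both. Tdgf1 passed in neither (-0.05 and 0.06). In all, 3 of these 8 genes were higher and 4 lower in Ins/Ins, against 2 higher and 3 lower in Ins/Del.

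**Figure D4:**
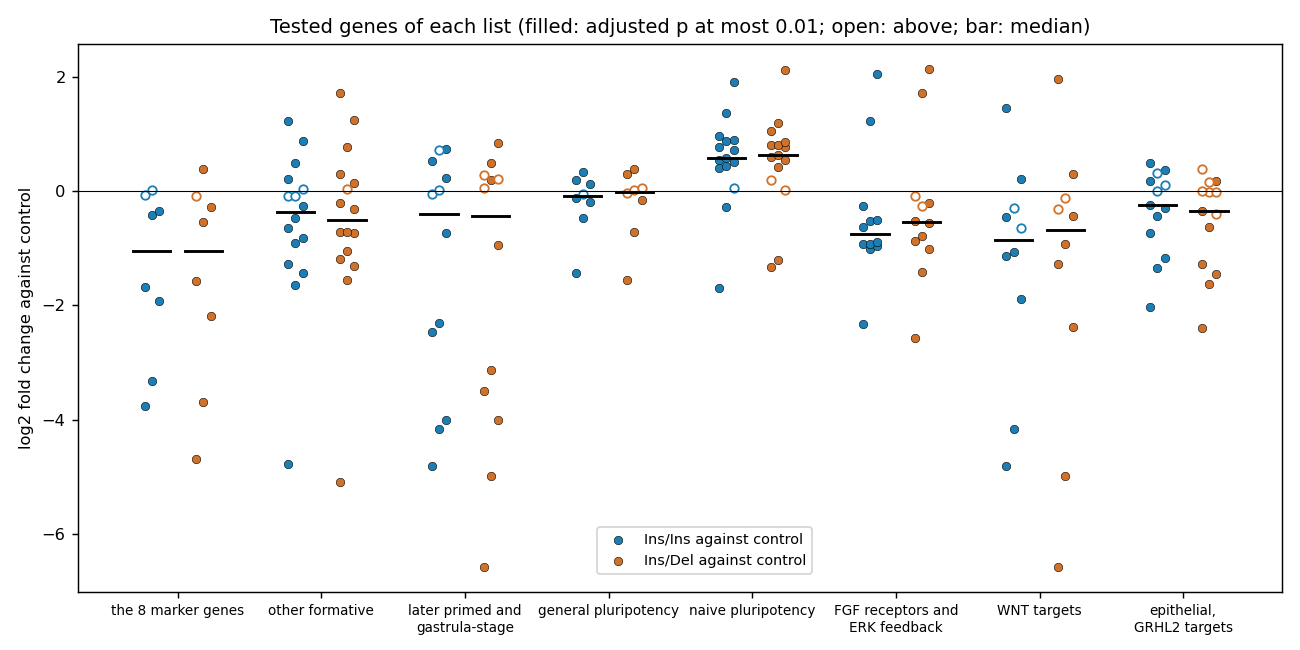
Log2 fold change against control (vertical axis) of every tested gene in 8 lists (horizontal axis), filled where the adjusted p was at most 0.01 and open otherwise, with black bars for medians. The 8 marker genes have medians near -1.05, and the naive genes have medians of 0.57 and 0.64; the lowest points of the later primed and WNT lists are T and Sp5, whose mutant libraries held at most 3 reads.

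Targets and regulators of the pathways in which the 8 genes act were also counted. Their counts compare with 29.4% of all tested genes lower and 29% higher in Ins/Ins, and 31.9% and 30.6% in Ins/Del. FGF5 signals through FGF receptors to ERK. Of 12 FGF receptors and ERK feedback genes, 10 were lower and 2 higher in Ins/Ins, and 8 were lower and 2 higher in Ins/Del. The ERK phosphatase gene Dusp4 fell from 1203 ± 75.3 to 238 ± 23.2 and 202 ± 13.6, and Fgfr2 fell from 846 ± 22.6 to 457 ± 37.7 and 319 ± 16.2. Fgfr4 and Etv4 were the genes that rose, Fgfr4 from 20.7 ± 4.02 to 84.6 ± 11.0 and 91.3 ± 18.4. Of 13 epithelial genes that GRHL2 is known to regulate, 7 were lower and 3 higher in Ins/Ins, and 6 were lower and 1 higher in Ins/Del. The claudin genes Cldn7 (479 ± 11.5, 211 ± 18, and 176 ± 22.2) and Cldn6 (1643 ± 40.8, 993 ± 14.0, and 679 ± 41.7) and the protease genes Prss8 (log2 fold change -1.34 and -1.62) and Tmprss2 (-2.02 and -2.40) were among those that fell in both. Another claudin gene, Cldn4, rose in both (1567 ± 42.7, 2036 ± 75.2, and 1780 ± 79.9). LEF1 acts at WNT target genes, of which 10 of 12 were tested, with 6 lower and 2 higher in each mutant. Besides T and Sp5, the WNT receptor regulator Rnf43 fell (16.2 ± 3.78, 4.11 ± 2.45, and 3.04 ± 0.866), and Notum, a secreted WNT inhibitor, rose from 188 ± 19.3 to 516 ± 45.7 and 732 ± 42.8.

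Markers of other cell types were counted beside the 8 genes. In the same comparisons, 29.4% of all tested genes were lower and 29% higher in Ins/Ins, and 31.9% and 30.6% in Ins/Del. The fibroblast and neural sums lay wholly below the controls in both mutants. For mesoderm, the mean sum was 131 in control, 103 in Ins/Ins, and 125 in Ins/Del. Its Ins/Ins libraries lay wholly below the controls, and its Ins/Del libraries overlapped with them. The endoderm sum overlapped with control in Ins/Ins and lay wholly above it in Ins/Del. The summed normalized count of 9 fibroblast markers ranged from 587 to 688 in control, 256 to 286 in Ins/Ins, and 345 to 366 in Ins/Del libraries. Of the 4 tested, Col1a1 (287, 17.0, and 24.4) and Col1a2 (250.005, 6.43, and 9.28) fell, Col3a1 had means of 31.3, 0.705, and 0.982, and Thy1 rose (45.7, 246, and 312). Of the tested fibroblast markers, 3 were lower and 1 higher in each mutant, and 5 were lower when all genes with at least 1 read were tested. Fap was at 0 in all controls. Of 10 neural progenitor markers, 4 were tested, with 2 lower and 1 higher in each mutant, and their sum ranged from 3024 to 3083 in control, 1332 to 1465 in Ins/Ins, and 1652 to 1725 in Ins/Del. Pax6 fell from 678 ± 14.6 to 73.6 ± 4.26 and 30.1 ± 4.0, Nes fell from 1744 ± 27.8 to 230.3 ± 24.9 and 205 ± 18.8, and Tubb3 rose (472, 967, and 1294).

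The shares of all tested genes apply here too, 29.4% lower and 29% higher in Ins/Ins, and 31.9% and 30.6% in Ins/Del. Of 7 mesoderm markers, 5 were tested, and 1 was lower and 0 higher in Ins/Ins, while 2 were lower and 1 higher in Ins/Del. The 2 lower became 1 under DESeq2 and without control replicate 1 or 2 or Ins/Del replicate 1 or 2. Their sum was 115 to 152 in control, 97.3 to 111 in Ins/Ins, and 109 to 137 in Ins/Del, with Mesp1 at 0 in controls and Msgn1 at 0 in both mutants. Of 9 endoderm markers, 7 were tested, and 1 was higher and 2 lower in Ins/Ins, while 5 were higher and 2 lower in Ins/Del. Without control replicate 2, the latter counts were 3 and 1. The endoderm sum was 1725 to 1854, 1686 to 1817, and 2334 to 2355 in the 3 lines. Sox7 rose (22.2, 70.8, and 106), and Dab2 (265, 104, and 109) and Gata4 (46.7, 15.9, and 22.1) fell. The part of any such cells in the differences of the 8 genes was not tested.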

How the data were processed

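Total RNA of 9 ESC libraries was made into mRNA libraries and sequenced in pairs of 50 bp. The authors aligned reads to mm10 with STAR (v2.7.3) and counted them per gene with HTSeq, and the deposited values are raw counts. The HTSeq version, annotation, and strand setting are not given in the sources used here. Counts were normalized by TMM, filtered with filterByExpr, and tested with edgeR 4.0.16 in R 4.3.3 (glmQLFit and glmQLFTest, all 9 libraries, 3 groups, no covariate). P-values were adjusted by the Benjamini-Hochberg method over 14125 genes, with a limit of 0.01. The standard error was taken as |log2 fold change|/√F. Positions and exon lengths come from GENCODE M21 (GRCm38, which is mm10), to which 24321 symbols matched. The fit was tested on simulated data. The 8 genes and the gene lists were chosen with earlier results of these data known. Named genes are the 8 genes, Rbbp4, paralogs, general pluripotency genes, up to 4 genes per list called in the same direction in both mutants with the largest mean change, the nearest neighbours, and the 2 tested genes most correlated with each. Antxr2, Zfp706, Pcca, and Hadh are neighbours under this rule, and some genes that the rule names are not reported here. Alternatives were DESeq2 1.42.0, other scaling, no filter, single-pair fits, a replicate block, a test against a 2-fold change, a limit of 0.05, and fits without each library.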

Additional observations from a re-analysis of the deposited data

Results flagged for a closer look

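Otx2 and Lef1 were singled out because the direct test between the mutant lines found that their changes against the shared controls differ. For Otx2 the log2 difference of Ins/Del from Ins/Ins was -0.51 (adjusted p = 9.9e-07, edgeR's quasi-likelihood test), and all 3 Ins/Del libraries lay below all 3 Ins/Ins libraries. For Lef1 it was 0.36 (adjusted p = 1.1e-05, edgeR's quasi-likelihood test), and all 3 Ins/Del libraries lay above. Each mutant line is a single clone, so allele and clone cannot be told apart.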

How the results depend on the processing

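Of 408 values of the 8 genes under 17 alternatives, 396 kept their direction and their side of the limit. The others include Lef1 in Ins/Ins, which ranged from -0.018 (without control replicate 1) to 0.062, and Zic2 between the mutants, from -0.046 to 0.00022 (without Ins/Del replicate 3), as single libraries were left out, and neither passed in any of these fits. Against a 2-fold change, Fgf5, Pou3f1, Otx2, and Sox3 still passed in both mutants. That test left 0 of the 8 genes higher in Ins/Del, 0 higher and 0 lower between the mutants, 530.0 genes of all tested higher and 706 lower in Ins/Ins, 739 and 824 in Ins/Del, and 0 and 0 between the mutants. Between the mutants, 2 of the 8 genes were lower when all genes with at least 1 read were tested (Otx2 and Pou3f1, the latter at adjusted p = 0.0085) and 3 at a limit of 0.05 (with Fgf5). Over all genes that limit gave 1426 higher and 1256 lower, and DESeq2 gave 431 lower. Leaving out single libraries gave 576 to 943 higher and 406 to 703 lower, the low ends without Ins/Del replicate 2 and without Ins/Ins replicate 1, and 412 and 422 were lower without Ins/Del replicate 2 and 3. With a replicate block, the counts for the 8 genes were 0 higher and 6 lower, 1 and 6, and 1 and 1, as without it, and over all genes 857 were higher and 642 lower between the mutants. Deviations of same-numbered libraries correlated between -0.028 and 0.056, and those of differently numbered libraries between -0.057 and 0.062. With 3 libraries per line, these values do not settle whether the numbers pair the samples. The window around Otx2 changed its neighbours' median from -0.51 within 1 Mb to -0.87 within 5 Mb in Ins/Ins. In the lists, 1605 of 1734 counts stayed within 1.5 times, and 63 of the 129 others came from the test against a 2-fold change. Among the 8 genes, Fgf5 had the fewest reads in the mutants, 6 to 19 per library.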

Other observations

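The genes whose levels over the 9 libraries were most like those of each marker are given by Pearson's r of log2(normalized count + 1) among 12704 genes with a mean above 20, as a description. The libraries fall into 3 lines and both mutants share a direction, so r mostly follows the differences between lines. For Fgf5 they were Cd24a (1261 ± 21.1, 631 ± 10.5, and 544 ± 15.1 normalized counts in control, Ins/Ins, and Ins/Del; r = 0.998) and Frem2 (2067 ± 68.9, 359 ± 41.9, and 239 ± 15.9; r = 0.998), and 147 genes had r above 0.99. For Otx2 they were Stx3 (2187 ± 27.4, 796 ± 20.2, and 591 ± 8.94) and Kctd12b (340.3 ± 23.7, 31.3 ± 0.558, and 14.1 ± 2.17), and for Pou3f1 Enpp3 (2595 ± 81.4, 1080.1 ± 19.7, and 984 ± 45.3) and Kif1a (2319 ± 50.9, 164 ± 10.5, and 119 ± 7.37). Sox3, with its higher mean in Ins/Del than in Ins/Ins, was nearest to Ccdc88c (r = 0.995) and Fmnl2 (r = 0.993), and only 9 genes passed 0.99.

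Lef1, called higher in Ins/Del and not called in Ins/Ins, was close to Zfp532 (3316 ± 185, 3358 ± 54.2, and 4123 ± 175; r = 0.956). Zic5 was nearest to Foxr2 (r = 0.983) and Togaram1 (r = 0.982), Grhl2 to Uhrf2 (r = 0.991) and Clvs2 (r = 0.980), and Zic2 to Atxn7 (r = 0.947) and Pan3 (r = 0.916).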
